A study of Mus musculus with 6 samples.

Results

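The nuclear-encoded subunits of the mitochondrial respiratory chain and ATP synthase were examined in RNA-seq data from mouse striatum. Members were the protein-coding genes of GENCODE release M21 outside the mitochondrial chromosome whose symbols follow the naming of these subunits. Symbols began with Nduf plus a, b, c, s or v and a digit, with Uqcr or with Atp5. The others were Sdha to Sdhd, and Cox4 to Cox8 when followed by a, b or c. The rule took 83 of the 55335 gene identifiers counted, and it used names only, not measured values. By complex there were 35 members of complex I, 4 of complex II, 8 of complex III, 18 of complex IV and 18 of ATP synthase. The symbol Atp5o stood for 2 gene models, so there were 82 distinct symbols. Ndufa4 and its paralog Ndufa4l2 were placed with complex IV, where the Ndufa4 protein is found. Atp5s, a regulatory factor, and Cox7a2l, which helps join complexes III and IV into supercomplexes, were taken by the rule although they are not classical structural subunits. Cox4i1, Cox4i2, Cyc1 and Ndufab1 are subunits that the rule misses, and Cycs, the electron carrier cytochrome c, lies outside it as well.

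The samples were 3 controls, labelled WT, and 3 labelled as overexpressing PDE5A, an enzyme that breaks down cyclic GMP. All 6 came from the striatum of C57 mice, and age, sex, the means of overexpression and what the control mice received were not given in the sources used here. The study addressed how striatal transcripts differ when this enzyme is overexpressed. The labels do not state whether each sample was a different animal, so the p-values reflect sample-to-sample spread that may be technical only.

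The respiratory chain passes electrons from NADH (complex I) and succinate (complex II) through ubiquinone, complex III and cytochrome c to oxygen at complex IV. Complexes I, III and IV pump protons across the inner mitochondrial membrane, and ATP synthase uses the gradient to make ATP. Most subunits are encoded in the nucleus and a few in mitochondrial DNA, so assembly needs products of both genomes. Neurons depend heavily on this pathway to maintain their ion gradients. Several subunits of complex IV exist as paired isoforms, one ubiquitous and one typical of muscle, testis or other tissues.

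The libraries held 33013698 to 42288789 counts, and the members took 0.757% to 0.837% of them. Pde5a, the manipulated gene, stood at 3.72, 4.14 and 6.09 CPM (counts per 1000000 counts of the library, with TMM factors) in control replicates 1 to 3 and at 760, 700 and 592 CPM in overexpression. All 10 medium spiny neuron markers, which define the principal cells of the striatum, passed the filter on low counts. Sums over marker lists are given in CPM of the library totals, without TMM factors, and these markers summed to 3409 to 6946 CPM on that scale. Choroid plexus markers summed to 52.1 to 74.4 CPM in control and to 543, 2502 and 35.1 CPM in overexpression replicates 1 to 3. All 12 of these markers were tested and none was at 0 in all libraries. Cortical glutamatergic markers ran from 166 to 1342 CPM and overlapped between the groups. Astrocyte markers summed to 4892, 4842 and 5256 CPM in the controls against 4738, 4420 and 4180 CPM with overexpression, without overlap. Lymphocyte markers, at very low counts, summed to 0.336, 0.709 and 1.48 CPM against 3.74, 5.27 and 4.01 CPM, also without overlap. The sums of the other marker lists overlapped. The part of these cells in the members' values was not tested. Overexpression replicate 2 was the library with the fewest counts and with the highest sum of choroid plexus markers.

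In the striatum, most members were abundant and even across libraries, though not from gene to gene. The isoforms known from muscle and testis were low. In control replicate 1 the mean level was 5.80 log2 CPM over the tested members and 3.17 over all genes tested. Levels are compared between genes as CPM divided by transcript length in kilobases (RPKM), using the shortest principal transcript of the annotation, and are given as the mean over all 6 libraries with the SD. The ATP synthase subunits Atp5b (465 ± 14.8 RPKM, n = 6) and Atp5a1 (282 ± 9.91 RPKM, n = 6), which form the catalytic head, were the highest of that complex. Leaving out the 6 tissue isoforms that were tested, the remaining 75 tested members lay between 9.50 RPKM (Atp5s) and 465 RPKM (Atp5b). The highest library exceeded the lowest by 1.04-fold to 1.39-fold for these 75 members, with a median of 1.15-fold in CPM.

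Complex I is the entry point for NADH. Its highest members per length were the accessory subunits of the membrane arm Ndufb9 (154 ± 15.4 RPKM, n = 6) and Ndufb8 (136 ± 5.49 RPKM, n = 6). Ndufb9 stood at 128, 152 and 165 RPKM in control and 150, 173 and 154 RPKM in overexpression, so the groups overlapped. The lowest was Ndufv3, an accessory subunit of the NADH-oxidising module, at 28.5 ± 1.79 RPKM (SD, n = 6). Catalytic core subunits lay in between, with Ndufv1, which binds FMN and oxidises NADH, at 71.3 RPKM, Ndufs7 at 60.3 and Ndufs1 at 50.8 RPKM. These core genes were chosen for their role after their values were seen.

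Complex II is also an enzyme of the citric acid cycle and is the one complex with no subunit encoded in mitochondrial DNA. Its flavoprotein Sdha stood at 121, 120 and 117 RPKM in control and 120, 117 and 108 RPKM in overexpression. Sdhb, the iron-sulfur subunit, averaged 72.8 ± 2.46 RPKM, and the membrane anchors Sdhd and Sdhc averaged 46.9 ± 1.75 and 24.95 ± 1.31 RPKM (SD, n = 6 each). Per length the 4 subunits thus spanned 24.95 to 117 RPKM although each complex holds 1 copy of each protein, and the order Sdha, Sdhb, Sdhd, Sdhc held in all 6 libraries. In complex III the small subunits Uqcrh, the hinge protein at cytochrome c1, and Uqcrq were highest (216 ± 10.96 and 173 ± 12.05 RPKM, n = 6 each). The lowest was Uqcrfs1, the Rieske iron-sulfur protein, at 59.5 ± 1.75 RPKM.

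In complex IV, Cox8a averaged 347 ± 32.0 RPKM, Cox6c 329 ± 12.4 RPKM and Cox6a1 321 ± 18.4 RPKM (SD, n = 6 each). These 3 small accessory subunits differed by less than the spread of Cox8a over the libraries. In ATP synthase, Atp5h, the d subunit of the peripheral stalk, averaged 273 ± 14.4 RPKM, next to Atp5a1. Atp5s was the lowest expressed member of the complex with each of the 3 lengths tried, at 9.50 ± 0.575 RPKM with the shortest principal transcript. These orders depend in part on the length used. With all annotated exons merged, Uqcr10 became the highest member of complex III and Atp5a1 that of ATP synthase, while the highest of the other 3 complexes stayed as given. With the longest principal transcript Uqcrq fell from 173 to 46.2 RPKM, below Uqcrfs1, and Ndufb2 (10.2 RPKM) and Ndufc1 (19.8 RPKM) fell below Ndufv3. In the same setting Cox6c stood at 224 RPKM, below Cox6a1 by more than the spread of Cox8a. With merged exons Uqcrc1 (37.8 RPKM) was the lowest of complex III, Ndufb2 (7.88 RPKM) the lowest of complex I, and Sdhd (46.9 RPKM) stood above Sdhb (37.1 RPKM). Members whose span overlaps another gene, 29 on the other strand and 12 on the same strand, and members with pseudogene copies have less certain counts, since the strand setting of the counting was not given in the sources used here.

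**Figure D1:**
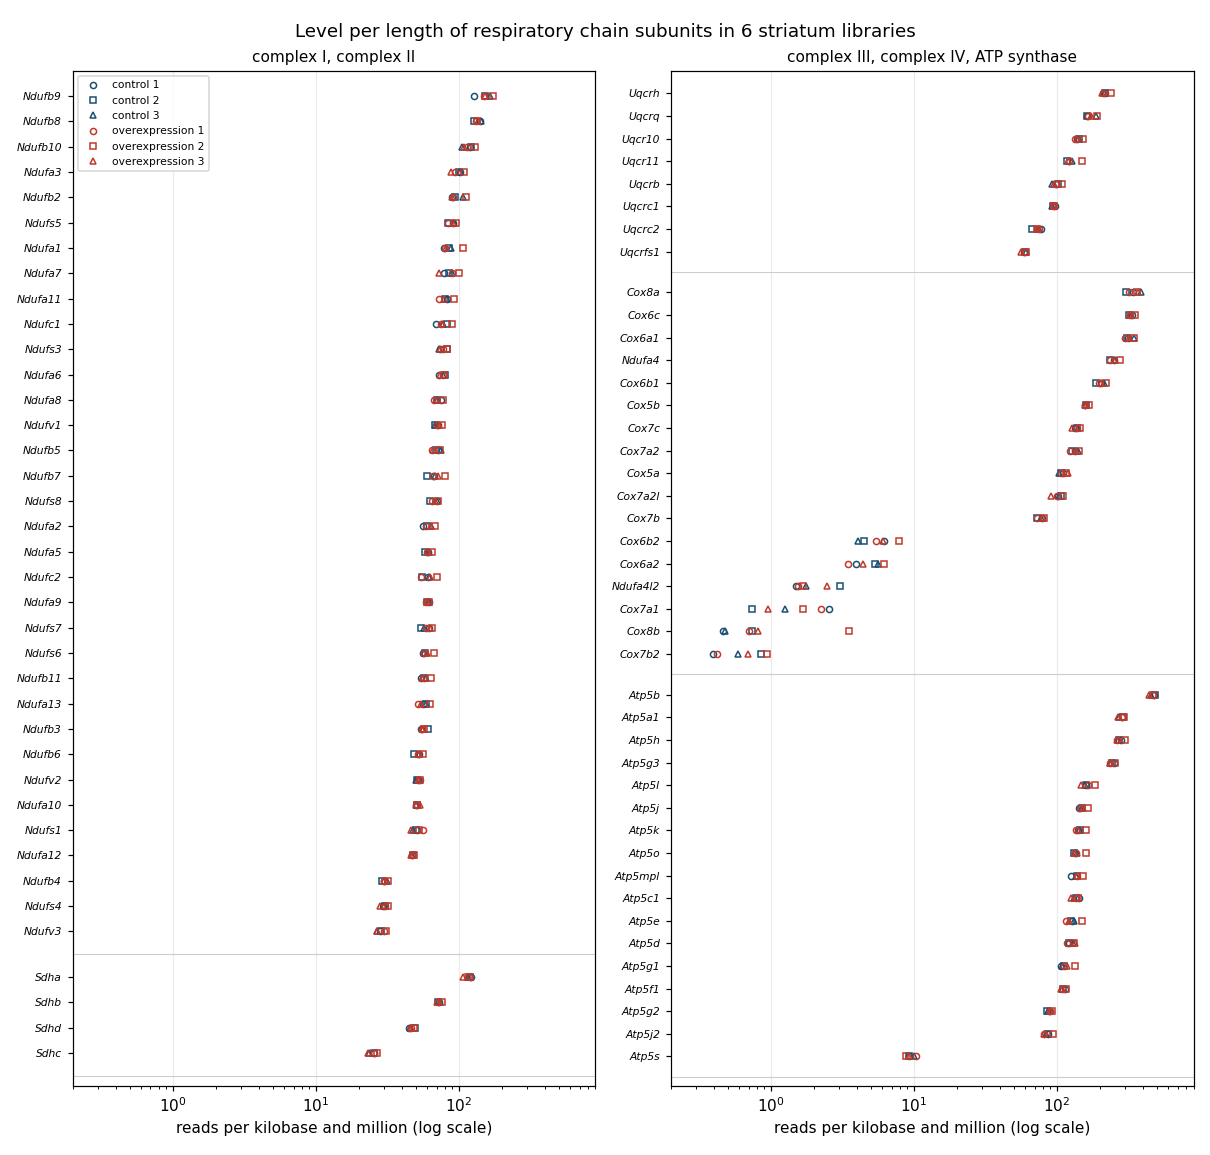
Level of the detected members reported here in each library, in RPKM on a log axis. Rows are genes ordered by mean within complexes I and II (left) and III, IV and ATP synthase (right); blue symbols are the 3 control and red symbols the 3 overexpression libraries. For most genes the 6 symbols lie on top of each other, while Cox6b2, Cox6a2, Ndufa4l2, Cox7a1, Cox8b and Cox7b2 lie below 10 and spread more widely.

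The subunits named above that the rule misses, which may not be all of them, also spanned high and low levels. Cox4i1, the ubiquitous isoform of subunit 4 of complex IV, averaged 462 RPKM, and Cox4i2, its isoform typical of lung, averaged 2.59 RPKM. Cyc1, the cytochrome c1 of complex III, averaged 55.9 RPKM and Ndufab1, the acyl carrier protein of complex I, averaged 38.3 RPKM. Cycs averaged 36.1 RPKM. Their log2 fold changes, overexpression over control, were between −0.04 (Cycs) and 0.06 (Cox4i2).

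No member rose or fell with PDE5A overexpression by the test used. Of 83 members, 81 passed the filter on low counts, and 0 of the 81 passed an adjusted p of 0.05 (edgeR's quasi-likelihood test, Benjamini-Hochberg over all 19809 genes tested), where Pde5a alone passed (0.00505% of genes). At an unadjusted p under 0.05 there were also 0 members, beside 3.89% of all genes tested. The DESeq2 Wald test called 0 members and 0.419% of all genes. The smallest unadjusted p among the members was 0.0603 (Cox8b), from the same edgeR test.

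For most members the fit bounded the difference closely. The 95% interval of the fold change lay within 1.5-fold in both directions for 75 of 81 members, against 57.6% of all genes tested. These 75 were all the tested members apart from the 6 tissue isoforms. Their log2 fold changes ran from −0.08 (Ndufb5) to 0.16 (Atp5g1), and their intervals reached from −0.27 at the lowest to 0.37 at the highest. The median within-group SD of the 81 members was 0.0852 on the log2 CPM scale, compared with 0.182 over all genes tested. Members were more abundant than the average gene tested, and these comparisons were not matched for level. Narrow intervals were not particular to the members. They lay within 1.5-fold for 100% of 14 citric acid cycle enzymes and 98.8% of 81 cytosolic ribosomal protein genes (median SD 0.0493 and 0.107). For 45 assembly factors and 15 regulators the shares were 93.3% and 86.7% (0.109 and 0.113). Because the striatum was measured as bulk tissue, fewer cells of a type and less RNA per cell cannot be told apart in any of these values.

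The members with the smallest p in complex I were Ndufb7, an accessory subunit on the intermembrane side, and Ndufs7, which carries the iron-sulfur cluster next to the ubiquinone site. Ndufb7 stood at 41.6, 37.4 and 42.8 CPM in the controls against 40.8, 49.9 and 44.4 CPM with overexpression (log2 fold change 0.15, SE 0.09), and Ndufs7 at 46.8, 41.0 and 43.6 and at 45.0, 49.7 and 48.1 CPM (0.12, SE 0.08). In both genes the groups overlapped and overexpression replicate 2 was the highest library, without which the log2 fold changes were 0.07 and 0.09. Ndufb5 and Ndufa3 had the most negative fold changes of complex I, at −0.08 (SE 0.07) and −0.07 (SE 0.09).

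In complex II the log2 fold changes were −0.06 for Sdha, 0.01 for Sdhb, 0.01 for Sdhd and 0.02 for Sdhc, each with an SE of 0.06 to 0.07. Sdha had 351, 349 and 339 CPM in the controls against 347, 339 and 313 CPM with overexpression, with the lowest value in overexpression replicate 3 and overlapping groups. In complex III the smallest p belonged to Uqcr11, a small accessory subunit, at 53.9, 52.7 and 56.9 CPM in the controls against 54.2, 66.3 and 52.8 CPM with overexpression (0.08, SE 0.10). Only overexpression replicate 2 stood apart there, and without it the value was −0.03. Uqcrb, another small subunit with a log2 fold change of 0.05, had the same highest library.

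In ATP synthase, Atp5g1 (ENSMUSG00000006057, chromosome 11 from 96068852 to 96075670 on the minus strand, mm10) had the smallest p (0.0909 unadjusted in edgeR's quasi-likelihood test, Benjamini-Hochberg adjusted p = 0.99996). It is one of 3 genes that encode the same mature c subunit, the protein of the rotating ring. Its values were 63.5, 67.1 and 64.2 CPM in the controls against 67.0, 79.8 and 70.1 CPM with overexpression, so the groups met at control replicate 2 and overexpression replicate 1. The log2 fold change was 0.16 with a 95% interval from −0.03 to 0.34, and it was 0.08 without overexpression replicate 2. Atp5mpl, a small membrane subunit, followed at 0.09 (SE 0.07). For Atp5b, the catalytic beta subunit, the values were 918, 923 and 870 CPM in the controls against 895, 893 and 848 CPM with overexpression (−0.04, SE 0.07).

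**Figure D2:**
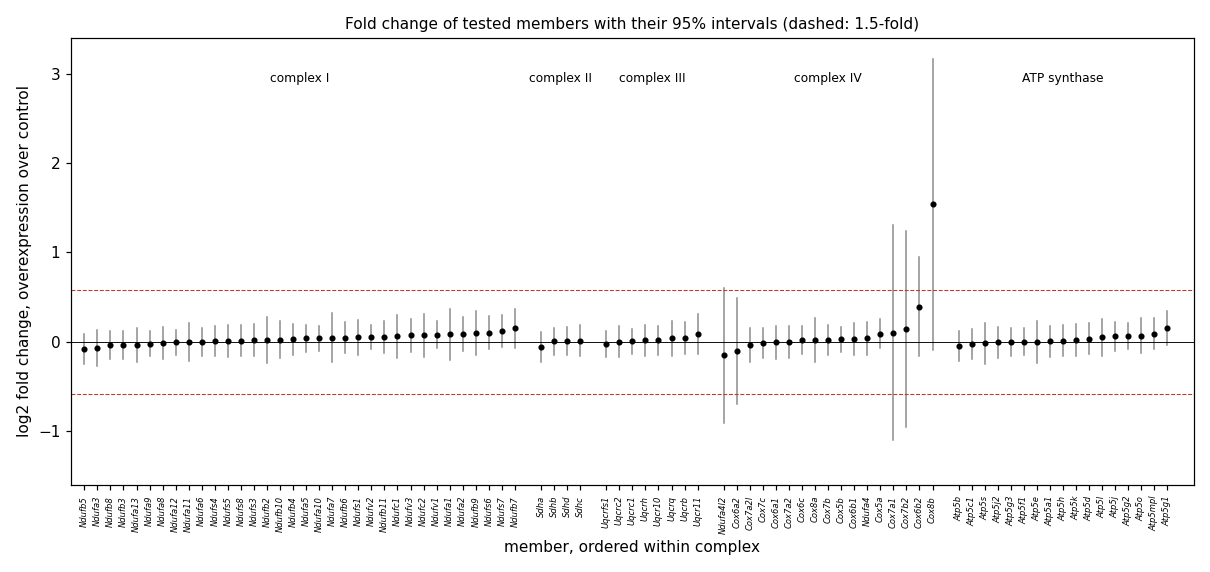
Log2 fold change, overexpression over control, of the tested members reported here with the 95% interval from edgeR's quasi-likelihood fit; members are ordered by fold change within each complex and dashed lines mark 1.5-fold. The wide intervals that cross a dashed line belong to the 6 tissue isoforms of complex IV.

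The groups did not overlap for 3 of 81 members, against 8.93% of all genes tested. They were higher with overexpression for 2 (4.81% of all genes) and lower for 1 (4.11%). Ndufa10, an accessory subunit of complex I, had 102, 102 and 101 CPM in the controls against 103, 103 and 109 CPM with overexpression. Atp5g2, the second gene of the c subunit, had 38.7, 37.5 and 38.4 CPM in the controls against 39.7, 40.9 and 39.3 CPM with overexpression. The log2 fold changes of these genes were 0.04 and 0.06, with unadjusted p of 0.5002 and 0.327 in the edgeR test. Ndufa10 is named here because of these values, which had been seen.

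The log2 fold change was positive for 59 of 81 members, against 50.6% of all genes tested, and the median was 0.02 compared with 0.0016 over all genes. By complex the median was 0.03 in complex I, 0.01 in complex II, 0.02 in complex III, 0.02 in complex IV and 0.01 in ATP synthase. These counts rested on 1 library. Without overexpression replicate 2, 25 of 81 members were positive and the median was −0.02. Without overexpression replicates 1 and 2 together, the libraries with the high choroid plexus sums, 31 were positive and the median was −0.03.

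The members moved together in overexpression replicate 2. That library was the highest of the 6 for 61 of 81 members, whereas it was the highest for 18% of all genes tested. It was the highest for 27 of 35 tested members of complex I, 2 of 4 of complex II, 6 of 8 of complex III, 13 of 17 of complex IV and 13 of 17 of ATP synthase. The summed level of the members was 7868, 7801 and 7839 CPM in the controls against 7735, 8307 and 7646 CPM with overexpression, so replicate 2 stood above the other 5 libraries and the other overexpression libraries stood below all 3 controls. The median member lay 0.12 above the mean of the other 5 libraries on the log2 CPM scale in replicate 2, and 74 of 81 members lay above it. Examples at the upper end were Uqcr11 (0.29), Ndufb7 (0.27) and Atp5g1 (0.27). Among the 7 members below it were Ndufa4l2, Atp5s, Ndufb8 and Sdha. The median deviation of this library was 0.0075 over all genes tested. It was 0.16 over 81 cytosolic ribosomal protein genes and 0.015 over 45 assembly factors. How many of all genes lay above the mean of the other 5 libraries was not counted.

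**Figure D3:**
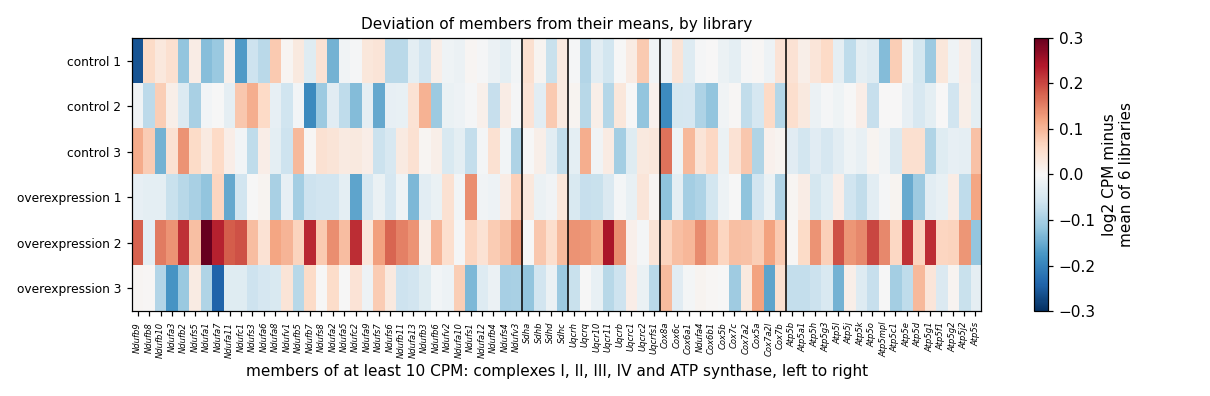
Log2 CPM of the members of at least 10 CPM reported here minus the mean over the 6 libraries, by library (rows) and member (columns, ordered by level within complexes I to IV and ATP synthase, separated by black lines); red is above and blue below the mean. The row of overexpression replicate 2 is red for nearly all columns, while the other rows mix both colours.

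In this library the size of the deviation went with transcript length. Among the members of at least 10 CPM, those with a principal transcript of up to 1000 nt were highest in overexpression replicate 2 in 43 of 49 cases (87.8%), with a median deviation of 0.16 from the mean of the other 5 libraries. Longer members were highest there in 14 of 26 cases (53.8%), with a median of 0.07. Other protein-coding genes of at least 10 CPM split in the same direction, with 42.9% of 550 genes up to 1000 nt and 12.1% of 9386 longer genes highest in that library. Within each length class the share was thus larger among the members than among the other genes, a difference that was not tested. The median length of the short members was 572 nt and that of the other short genes 758 nt. Among the longer genes it was 1593 nt for the members and 3275.5 nt for the others. Neither comparison was thus matched for length.

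Across the 75 members of at least 10 CPM, Spearman's rho between length and deviation was −0.64 in overexpression replicate 2. It was 0.49 in overexpression replicate 1, 0.38, 0.21 and −0.27 in control replicates 1 to 3, and −0.10 in overexpression replicate 3. Across 9936 other protein-coding genes rho was −0.37 in overexpression replicate 2 and 0.14 in overexpression replicate 1. These are descriptions across genes of the same libraries, which are not independent replicates, and the 6 libraries are scaled to each other. Each deviation is also taken from the mean of the other 5 libraries. A trend in overexpression replicate 2 therefore pushes the values of the other libraries the opposite way. The positive values cannot be read as separate trends of those libraries. Cytosolic ribosomal proteins, another family of short abundant transcripts, were highest in overexpression replicate 2 for 67 of 81 genes. Depth and choroid plexus markers also set this library apart, as given above, and their part in the shared deviation was not tested.

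**Figure D4:**
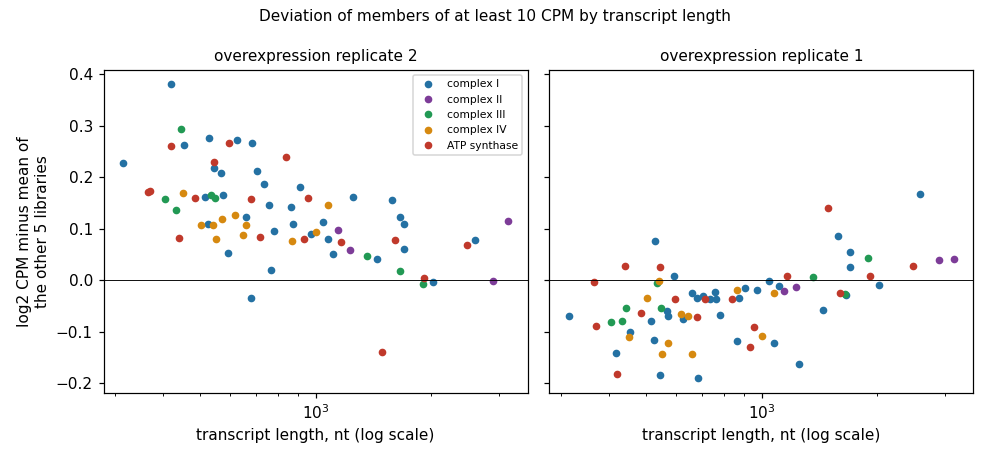
Deviation of the members of at least 10 CPM reported here from the mean of the other 5 libraries, on the log2 CPM scale, against the length of its shortest principal transcript in nt on a log axis, in overexpression replicate 2 (left) and overexpression replicate 1 (right), coloured by complex. On the left the shortest transcripts lie highest (Spearman's rho −0.64), and on the right the order is the opposite (0.49). The mean used on the right includes overexpression replicate 2, so the 2 panels are not independent.

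The sequences before the members' transcription starts are also described, with a few shown. NRF1 and GABPA are transcription factors known for activating nuclear genes of the respiratory chain. RefSeq start-site windows (GRCm38.p6), from 250 bases before to 50 after the start, matched 68 of the 82 member symbols, with 73 windows in all. The NRF1 motif, GCGCA and GCGC with any 1 base between them, searched on both strands with a site that reads the same on both counted once, was in 18 of the 73 windows (24.7%), compared with 4.6% of the 32851 windows of all genes. The GABPA motif CCGGAAGT, also searched on both strands, was in 5 windows (6.85%), compared with 3.89% of all windows. One or the other was in 22 member windows (30.1%) and in 8.1% of all windows. These are counts of windows, not of genes, and the 2 overlapping windows of Ndufa5 hold the same NRF1 site. Member windows were limited to protein-coding RefSeq genes, a limit that was not applied to the windows of all genes. The median GC content was 57.3% in member windows and 52.7% in all windows. The windows of the 4 tissue isoforms that matched, Cox6b2, Cox7a1, Cox7b2 and Cox8b, held neither motif, which says only that these letters are not there.

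The 200 bases before the RefSeq start are printed 5′ to 3′ on the gene's strand, with motif matches in capitals. Sdha and Ndufb4 are shown for their 3 NRF1 matches each, Cox6a1 for 2, Atp5h for a match of each motif (GABPA on the opposite strand), and Atp5g1 and Cox8b because their fold changes were the largest among the ubiquitous and the tissue isoforms. Ndufb4 and Atp5h were chosen after their sequences were seen. RefSeq starts can lie inside a longer GENCODE model of the same gene, and no link between these sequences and the levels was tested.
Sdha, chr13:74350241-74350440, minus strand: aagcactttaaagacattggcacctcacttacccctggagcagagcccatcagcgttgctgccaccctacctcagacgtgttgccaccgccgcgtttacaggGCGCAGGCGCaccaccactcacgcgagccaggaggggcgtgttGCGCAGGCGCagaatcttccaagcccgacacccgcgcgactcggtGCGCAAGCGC
Ndufb4, chr16:37654369-37654568, minus strand: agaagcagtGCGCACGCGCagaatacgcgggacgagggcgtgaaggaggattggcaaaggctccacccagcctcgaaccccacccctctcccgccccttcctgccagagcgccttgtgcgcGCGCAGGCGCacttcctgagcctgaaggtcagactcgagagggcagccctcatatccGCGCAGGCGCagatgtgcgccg
Cox6a1, chr5:115348959-115349158, minus strand: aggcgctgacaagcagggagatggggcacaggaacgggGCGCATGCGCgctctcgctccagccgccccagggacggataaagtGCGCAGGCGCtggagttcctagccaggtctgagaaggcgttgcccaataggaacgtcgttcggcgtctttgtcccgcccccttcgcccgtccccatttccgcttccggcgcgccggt
Atp5h, chr11:115419920-115420119, minus strand: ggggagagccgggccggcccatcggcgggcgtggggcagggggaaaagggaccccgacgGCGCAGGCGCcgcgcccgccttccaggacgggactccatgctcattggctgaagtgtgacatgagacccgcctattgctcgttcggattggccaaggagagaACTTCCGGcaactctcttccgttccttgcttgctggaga
Atp5g1, chr11:96075632-96075831, minus strand: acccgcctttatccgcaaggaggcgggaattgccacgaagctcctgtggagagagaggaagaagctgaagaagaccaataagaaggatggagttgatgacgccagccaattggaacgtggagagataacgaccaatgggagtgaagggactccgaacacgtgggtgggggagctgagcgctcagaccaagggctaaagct
Cox8b, chr7:140900447-140900646, minus strand: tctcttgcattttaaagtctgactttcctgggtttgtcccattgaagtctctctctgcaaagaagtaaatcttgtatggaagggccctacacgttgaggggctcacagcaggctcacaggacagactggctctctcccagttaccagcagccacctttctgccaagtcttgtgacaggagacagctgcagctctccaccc
The last NRF1 match of Sdha ends at the base before the start. Ndufb4 had 29.2, 28.2 and 30.5 CPM in the controls against 29.3, 31.2 and 29.2 CPM with overexpression, and Cox6a1 had 178, 177 and 196 CPM and 171, 196 and 182 CPM.

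The tissue isoforms were expressed at a small fraction of their ubiquitous partners. Cox6b2, known from testis, averaged 5.68 ± 1.37 RPKM, Cox6a2, known from heart and skeletal muscle, 4.83 ± 1.05 RPKM, and Ndufa4l2, a hypoxia-responsive paralog, 1.998 ± 0.612 RPKM (SD, n = 6 each). Cox7a1, also a muscle isoform, averaged 1.57 ± 0.722 RPKM, Cox8b, known from muscle and brown fat, 1.12 ± 1.18 RPKM, and Cox7b2, known from testis, 0.650 ± 0.224 RPKM. Cox8c, a testis isoform of subunit 8, had 0 counts in all 6 libraries, which allows at most 0.0902 CPM in the shallowest library by counting error alone. The second gene model of Atp5o, a readthrough model, also had 0 counts. Skeletal and cardiac muscle markers summed to 8.58 to 11.4 CPM of the library totals, without TMM factors, with 0 of 10 at 0 in all libraries, and testis markers to 0.0479 to 0.303 CPM on the same scale, with 2 of 6 at 0 in all libraries. Pericyte and vascular smooth muscle markers summed to 181 to 218 CPM and parvalbumin interneuron markers to 727 to 897 CPM on the same scale. Whether cells of any of these types contributed to the isoforms was not tested.

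Cox8b (ENSMUSG00000025488, chromosome 7 from 140898945 to 140900446 on the minus strand, mm10) had the largest fold change of any member, and 1 library carried it. Its counts were 7, 11 and 7 in control and 10, 42 and 11 in overexpression, or 0.167, 0.268 and 0.173 CPM and 0.253, 1.26 and 0.294 CPM. The log2 fold change was 1.54 (95% interval −0.09 to 3.16, adjusted p = 0.99996, edgeR's quasi-likelihood test, Benjamini-Hochberg). Without overexpression replicate 2 the value was 0.42. The high value was that of replicate 2, the library with the highest sum of choroid plexus markers, and the part of those cells was not tested. Cox6b2 followed with 2.86, 2.07 and 1.91 CPM in the controls against 2.51, 3.67 and 2.83 CPM with overexpression (0.39, 95% interval −0.16 to 0.94, and 0.23 without overexpression replicate 2). The groups of both genes overlapped.

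Cox6a2 had 2.70, 3.66 and 3.84 CPM in the controls against 2.36, 4.18 and 2.99 CPM with overexpression (−0.10, SE 0.25). Ndufa4l2 had 1.41, 2.83 and 1.66 CPM in the controls against 1.44, 1.56 and 2.30 CPM with overexpression (−0.15, SE 0.32), the most negative value of any member. Cox7a1 ran from 0.293 to 1.002 CPM in the controls and from 0.374 to 0.887 CPM with overexpression, and Cox7b2 ran from 0.215 to 0.511 CPM over all libraries. At these counts a change of the size seen between libraries could not be told from their spread.

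Ratios between isoforms of 1 subunit do not depend on how libraries are scaled. Of 9 pairs listed, 7 had at least 10 counts for both genes in every library, and these were compared on the log2 count ratio with a two-sided exact permutation test, in which 3 samples against 3 cannot go below p = 0.1. The lowest exact p was 0.1 for Atp5g1 over Atp5g3 (0.7 after Benjamini-Hochberg adjustment over the 7 pairs). Its log2 ratio was −1.50, −1.36 and −1.37 in control and −1.33, −1.18 and −1.25 in overexpression. The mean differed by 0.16, and the groups did not overlap, which is the same fact as the exact p of 0.1. The highest ratio was that of overexpression replicate 2. In that library Atp5g1 stood 0.27 and Atp5g3 0.08 above the mean of the other 5 libraries in log2 CPM.

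Atp5g1, Atp5g2 and Atp5g3 encode identical mature proteins behind different import peptides. With the shortest principal transcripts Atp5g3 was highest of the 3 at 241 ± 8.90 RPKM, followed by Atp5g1 at 115 ± 10.03 and Atp5g2 at 88.6 ± 2.66 RPKM (SD, n = 6 each). The order of the lower genes depends on the length. With the longest principal transcripts Atp5g1 stood at 14.6, Atp5g2 at 53.5 and Atp5g3 at 238 RPKM, and with merged exons at 13.97, 23.3 and 79.0 RPKM. The count ratios between groups do not use the length. For Atp5g2 over Atp5g3 the log2 ratio was −2.17 ± 0.0514 in control and −2.11 ± 0.0322 in overexpression (SD, n = 3 each), with an exact p of 0.2 and an adjusted p of 0.7. Both ratios set a c-subunit gene of lower level over the highest, Atp5g3.

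With the shortest principal transcripts, the muscle isoform Cox6a2 made up 1.15% to 1.76% of the sum of Cox6a2 and Cox6a1 per length, and Cox6b2 1.89% to 3.47% of the sum with Cox6b1. Cox7a1 made up 0.583% to 1.88% of the sum with Cox7a2, and Ndufa4l2 0.602% to 1.28% of the sum with Ndufa4. Cox7a2l made up 40.2% to 45.6% of the sum with Cox7a2. Differences of the log2 ratio between the groups were −0.11, 0.36, 0.20, −0.15 and −0.04 in the order given, with exact p of 0.7, 0.3, 0.8, 0.7 and 0.8 and adjusted p of 0.7 to 0.8. For the pairs with too few counts, Cox7b2 was 0.499% to 1.17% of the sum with Cox7b. Cox8b was 0.124% to 0.245% of the sum with Cox8a in 5 libraries and 0.959% in overexpression replicate 2.

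**Figure D5:**
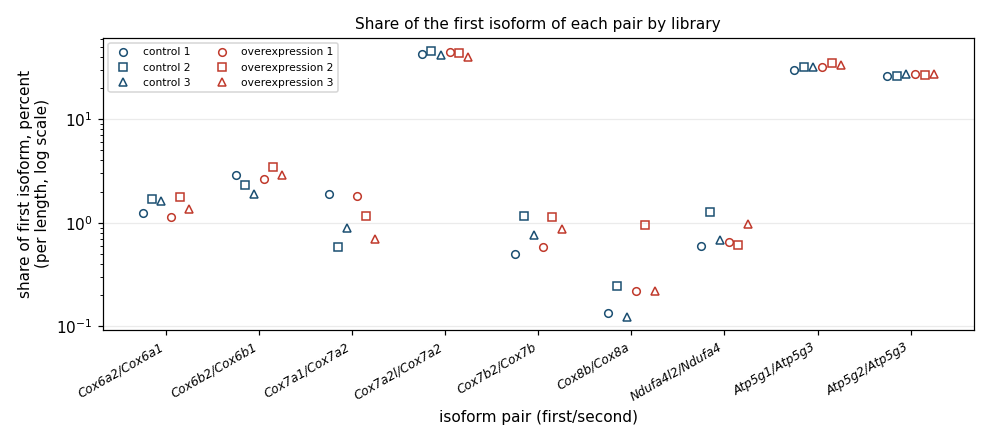
Share of the first isoform in the sum of each pair, in percent per length (shortest principal transcript) on a log axis, for the 9 pairs and each library (blue control, red overexpression). Cox7a2l and the c-subunit genes take 25.9% to 45.6% with this length, the other first isoforms stay at or below 3.47%, and the overexpression replicate 2 symbol of Cox8b (0.959%) stands above the other 5 libraries.

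Genes that work with the members did not pass the edgeR test either, with 0 called in each list. The 13 subunits encoded in mitochondrial DNA all had negative log2 fold changes, with a median of −0.15. All 13 stayed negative in every alternative run, with medians from −0.30 without overexpression replicates 1 and 2 together to −0.06 without control replicate 2. The lowest p in that list were those of mt-Nd5 (7311 ± 896 CPM in the controls against 6217 ± 259 with overexpression, SD, n = 3 each, −0.23, SE 0.11) and mt-Nd4l (1195 ± 132 and 1027 ± 80.9 CPM, −0.22, SE 0.11), both of complex I. The 13 genes share a few long precursor transcripts and are not independent of each other. The ratio of their summed CPM to that of the members was 10.9, 13.9 and 12.2 in control and 11.4, 11.2 and 10.47 in overexpression, and the groups overlapped. In contrast to the members, 0 of the 13 were highest in overexpression replicate 2.

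Of 46 assembly factors, which build the complexes without remaining in them, 45 were tested, 19 were positive and the median was −0.01. The lowest p were those of Bcs1l, which inserts the Rieske protein into complex III, at −0.19 (SE 0.10), and Ttc19, also of complex III, at 0.14 (SE 0.07). Overexpression replicate 2 was highest for 12 of the 45. Of 15 regulators of respiratory gene expression 5 were positive (8 without overexpression replicate 1 or replicate 3), with a median of −0.04. The coactivator Ppargc1a, known as a driver of mitochondrial biogenesis, had 45.6 ± 5.24 CPM in the controls against 40.2 ± 2.14 CPM with overexpression (−0.18, SE 0.10). The nuclear receptor Esrrg had 33.1 ± 6.70 and 25.1 ± 6.36 CPM (−0.40, SE 0.21; SD, n = 3 each).

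Of 14 enzymes of the citric acid cycle 3 were positive, with a median of −0.01, and 3 were highest in overexpression replicate 2. Cs, citrate synthase, had 213, 203 and 208 CPM in the controls against 190, 193 and 202 CPM with overexpression (−0.09, SE 0.06). The groups did not overlap for 2 enzymes that were lower with overexpression, Cs among them, and for 1 that was higher. Over all genes tested the shares were 4.11% lower and 4.81% higher. With 1 library left out, up to 7 of the 14 enzymes were positive (without control replicate 1), beside 6 without overexpression replicate 3 and 5 without overexpression replicate 2. Cytosolic ribosomal proteins had 23 of 81 positive values and a median of −0.02. Like the members, they followed single libraries, with 1 of 81 positive without overexpression replicate 2 and 64 of 81 without overexpression replicate 3.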

How the data were processed

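RNA-seq of 3 control and 3 PDE5A-overexpressing striatum samples was analysed, grouped by sample title. Total RNA had been extracted with Trizol for strand-specific TruSeq libraries, per the labels' protocols. Each deposited file held raw counts, whole numbers by Ensembl gene, for 1 sample, not normalized. The tools named in the submitters' processing notes, without roles, were STAR 2.5.3a, FastQC 0.11.5, DESeq 1.16.1 and Cuffnorm, with build mm10. Which program counted reads, whether strand was used and which annotation release served, is not given in the sources used here. Of 55335 identifiers, 55154 were matched to GENCODE M21.

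The whole table was fitted with edgeR 4.0.16 in R 4.3.3 (TMM, filterByExpr, robust quasi-likelihood F-test, two-sided), with Benjamini-Hochberg adjustment over 19809 genes and a threshold of 0.05. Standard errors were derived from the log2 fold change and the F statistic (absolute change over the root of F), and 95% intervals from the t distribution of the fit. Log2 CPM had a prior count of 2. Isoform ratios had 0.5 added to each count. The limit a count of 0 allows (3 counts) covers counting error only. Library totals were 33013698 to 42288789, and counting error is not small beside the spread between samples for the tissue isoforms. The same holds for ubiquitous members with close replicates, such as Atp5g2 (1361 to 1622 counts, within-group SD of 0.0275 in log2 CPM). Within groups, replicates differed beyond sampling noise (chi-square per degree of freedom of 19.1 or more over genes). The tests were tried on simulated data first.

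Members and gene lists were chosen with earlier results of these data known. The naming rule took every isoform of a listed pair, the 2 highest and the lowest member per length and the 2 with the smallest p in each complex, all of complex II, the 5 largest fold changes in each direction, and the 2 genes with the smallest p in each pathway list. Alternatives were DESeq2 1.42.0 size factors and its Wald test, upper-quartile factors, limma-voom (limma 3.58.1), other filters, the replicate number as a block, removal of mitochondrially encoded genes, and leaving out libraries. Other transcript lengths were added after seeing the data. Some genes that the counts include are not reported here by name.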

Additional observations from a re-analysis of the deposited data

How the results depend on the processing

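Over 15 alternatives, 0 members passed the threshold, and Pde5a passed in each. The number of members with a positive log2 fold change, 59, was 54 to 64 under other scalings, tests and filters, 25 to 64 when 1 library was left out (25 without overexpression replicate 2) and 31 without overexpression replicates 1 and 2 together, where the lone overexpression library is assumed to vary like the others. Overexpression replicate 2 was the highest library for 55 to 63 members under other scalings and filters. The median was −0.024 to 0.048 with 1 library left out. Same-numbered samples did not deviate together for replicates 1 and 2 (r of −0.02 and 0.03), while r was 0.29 for replicates 3. Differently numbered samples reached values as large, with 0.35 for control replicate 2 and overexpression replicate 1. For control replicate 2 and overexpression replicate 3 r was −0.34. With the number as a replicate block 0 members passed, 57 were positive and the median was 0.02.

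Of 37 named members, 24 turned direction in at least 1 alternative, each without a call. Near 0, Cox7a2 turned to 0.0016 with DESeq2 size factors, 0.0063 with upper-quartile factors, 0.0015 in the DESeq2 Wald test and 0.0033 with at least 1 CPM required, Atp5g3 to 0.0039 with upper-quartile factors and 0.00073 with at least 1 CPM, and Cox6a1 to 0.0027 with upper-quartile factors. Without overexpression replicates 1 and 2 together the log2 fold change was −0.072 for Atp5a1, −0.027 for Cox6c, −0.674 for Cox7a1, 0.024 for Cox7a2, 0.222 for Ndufa4l2, −0.065 for Ndufv3, −0.057 for Sdhb, −0.106 for Sdhc, −0.013 for Sdhd, −0.047 for Uqcr11, −0.042 for Uqcrb and −0.062 for Uqcrh. 
With 1 library left out the lowest and highest log2 fold changes were −0.022 and 0.040 for Atp5a1, −0.040 and 0.031 for Atp5g3, −0.081 and 0.038 for Atp5s, −0.057 and 0.047 for Cox6a1, −0.345 and 0.076 for Cox6a2, −0.011 and 0.079 for Cox6b1, −0.023 and 0.048 for Cox6c, −0.221 and 0.706 for Cox7a1, −0.046 and 0.056 for Cox7a2, −0.108 and 0.030 for Cox7a2l, and −0.010 and 0.073 for Cox7b. They were −0.148 and 0.456 for Cox7b2, −0.058 and 0.119 for Cox8a, −0.022 and 0.094 for Ndufa4, −0.388 and 0.208 for Ndufa4l2, −0.035 and 0.032 for Sdhb, −0.029 and 0.070 for Sdhc, −0.011 and 0.059 for Sdhd, −0.026 and 0.142 for Uqcr11, −0.011 and 0.088 for Uqcrb, −0.049 and 0.0076 for Uqcrfs1, −0.048 and 0.052 for Uqcrh, and −0.017 and 0.112 for Uqcrq. For the isoform ratios they were −0.281 and 0.031 for Cox6a2 over Cox6a1, −0.177 and 0.656 for Cox7a1 over Cox7a2, −0.095 and 0.048 for Cox7a2l over Cox7a2, and −0.367 and 0.178 for Ndufa4l2 over Ndufa4, with 0 pairs called in any setting. The cause was not tested. Counts of 7 to 42 limit what can be seen for Cox8b.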

Other observations

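Of the symbols that follow the members' naming, 12 belong to gene models that are not protein-coding in GENCODE M21 and so lie outside the rule. The highest was Ndufb1-ps, annotated as a noncoding RNA from a bidirectional promoter, with 29.5, 28.4 and 28.6 CPM in the controls against 27.3, 34.3 and 30.1 CPM with overexpression, highest in overexpression replicate 2. Ndufb4c, a processed pseudogene, had 11.5, 10.3 and 11.7 CPM in the controls against 9.63, 11.4 and 9.72 CPM with overexpression. Cox6c2 had 1.12 to 1.77 CPM and Atp5l2-ps 1.20 to 1.47 CPM, and the remaining 8 models had at most 0.406 CPM in any library. Whether reads of Ndufb4, Cox6c or Atp5l were counted under these copies, or the reverse, was not tested.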
